A study of Arabidopsis thaliana with 27 samples.

Results

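The transcripts described here come from 8 Arabidopsis thaliana genes that mark the cells of the mature female gametophyte: the egg cell genes EC1.1 (AT1G76750), EC1.2 (AT2G21740), EC1.3 (AT2G21750), EC1.4 (AT4G39340) and EC1.5 (AT5G64720), the synergid gene MYB98 (AT4G18770), and the central cell genes AGL80 (AT5G48670) and AGL61 (AT2G24840). They were picked by locus name, with earlier results of these data known and by no threshold on a measured value, from the 33602 loci with a read count in each of 27 RNA-seq libraries. All plants were in the Columbia background. The gynoecium groups were arf6arf8 (2 libraries), a double mutant of the auxin response factor genes ARF6 and ARF8; mARF8 (4 libraries), which carries a genomic ARF8 transgene whose miR167 target site is mutated; Pstk_axr3 (4 libraries), in which the SEEDSTICK promoter drives axr3-1, the gene for a stabilized form of the auxin response repressor IAA17; arf6 Pstk_axr3 (4 libraries), the same transgene in an arf6 mutant; and wild type (4 libraries). The stamen groups were arf6arf8 (2 libraries), mARF8 (4 libraries) and wild type (3 libraries).

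The gynoecia were taken at flower stage 12 and measured 0.9 to 1.4 mm, and the stamens came from stage 11 buds. Several groups mix plant lines. By their titles, 3 mARF8 gynoecium libraries were line 3B and the fourth names no line, whereas the mARF8 stamen libraries were line 3B (replicates 1 and 3), line 4B (replicate 2) and a pool of several transgenic plants called T1s (replicate 4), although the genotype tags give 3B for all mARF8 gynoecia and 4B for all mARF8 stamens. Among the Pstk_axr3 libraries, replicate 3 was line 15-5, replicate 4 came from F1 plants of Columbia and line 25-2, and replicates 1 and 2 name no line; arf6 Pstk_axr3 had 2 libraries of line 15-5 and 2 of line 25-2, although its genotype tag gives 15-5 for all 4. The labels do not say that replicates came from separate plants, so p-values measure the spread between these libraries only. Gynoecium libraries held 3692975 to 15374607 counts and stamen libraries 3989223 to 12723197, so a floor of 3 counts equalled 0.195 to 0.812 CPM, counts per 1000000 counts of the library, in gynoecia and 0.236 to 0.752 CPM in stamens.

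In flowering plants the embryo sac inside each ovule forms an egg cell, a pair of synergids and a central cell, and these cells differentiate late in ovule development. EC1 genes encode small cysteine-rich proteins that the egg releases when sperm arrive and that make the sperm ready to fuse; their loss together impairs gamete fusion. MYB98 is a transcription factor of the synergids, needed for the filiform apparatus and for attracting pollen tubes, and AGL80 and AGL61 are type I MADS-box proteins that bind each other and are needed for central cell development. ARF6 and ARF8 activate auxin-responsive genes during stamen and gynoecium maturation, and miR167 limits both. Anthers contain no embryo sac, so the stamen libraries give the level of these transcripts where none of the marked cells is present.

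The gene models set what a read count can show. In the TAIR10.1 reference annotation EC1.1 (chr1:28811040-28811721, plus strand), EC1.2 (chr2:9281986-9282387, minus strand), EC1.3 (chr2:9283367-9283774, minus strand), EC1.4 (chr4:18293129-18293512, minus strand), EC1.5 (chr5:25872305-25872833, minus strand), AGL80 (chr5:19738646-19739841, minus strand) and AGL61 (chr2:10581069-10582015, plus strand) each have 1 exon, and MYB98 (chr4:10311030-10313104, plus strand) has 3. EC1.4 is annotated as 384 coding bases with no UTR. No strand setting of the counting is given in the sources used here, so reads over shared bases cannot be assigned to one strand: EC1.1 shares 357 of its 682 exon bases with genes on the other strand, EC1.2 shares 193 of 402 with CAD2, and MYB98 shares 481 of 1869 with IRX1.

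Only EC1.2 had 50-base windows, the length of the sequenced reads, that occur elsewhere in the genome. Of its 353 windows, 306 occur once, and the rest lie in a run that AT2G21895, a transcribed pseudogene on the same chromosome, repeats with a single substitution, C53A, counted from 1 at the 5′ end of the run (the EC1.2 base first). The pair is shown because reads from this run that miss that base cannot tell EC1.2 from the pseudogene; the capital marks the base that differs. Both are the minus strand of TAIR10.1, chr2:9281986-9282131 for EC1.2 and chr2:9333002-9333147 for AT2G21895.
EC1.2: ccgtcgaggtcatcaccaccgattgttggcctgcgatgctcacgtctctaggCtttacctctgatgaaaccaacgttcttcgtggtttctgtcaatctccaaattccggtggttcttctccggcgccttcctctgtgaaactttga
AT2G21895: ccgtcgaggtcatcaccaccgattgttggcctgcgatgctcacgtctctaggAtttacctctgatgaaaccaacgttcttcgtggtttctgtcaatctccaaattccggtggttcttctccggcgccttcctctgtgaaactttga

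EC1.4 and AGL80 share no exon base with another gene, but each ends close to a gene that runs towards it. The same holds for EC1.5, which ends 35 bases from AT5G64710, and for AGL61, which ends 58 bases from TAT3. CAD9, which encodes a cinnamyl alcohol dehydrogenase family protein, ends 110 bases from EC1.4, and AT5G48660 ends 107 bases from AGL80. The bases between the paired genes are shown because these were the only members with counts in every library; they are the minus strand of TAIR10.1, chr4:18293019-18293128 and chr5:19738539-19738645, read from the end of the member towards its neighbour.
EC1.4 to CAD9: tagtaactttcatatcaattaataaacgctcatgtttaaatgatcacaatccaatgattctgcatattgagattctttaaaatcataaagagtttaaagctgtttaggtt
AGL80 to AT5G48660: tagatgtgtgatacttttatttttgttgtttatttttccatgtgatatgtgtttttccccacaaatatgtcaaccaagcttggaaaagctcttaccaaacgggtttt

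Most of the egg, synergid and central cell transcripts were at or near 0 in the gynoecia of every genotype. EC1.1, EC1.2, EC1.3, EC1.5, MYB98 and AGL61 never exceeded 2 counts in any of the 18 gynoecium libraries, and together they had 15 reads among 157809069. In the 9 stamen libraries the same 6 genes had 13 reads among 62428405. That is 75% of the members at 2 counts or fewer throughout the gynoecia, against 34.3% of all loci in the files. In bulk organs, fewer cells of a type and less RNA per cell cannot be told apart.

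Among the egg cell genes, EC1.2, whose promoter is widely used to drive egg cell expression, had 0 counts in all 18 gynoecium libraries, which allows a summed level of up to 0.0190 CPM at a floor of 3 counts (counting error only). In stamens it had 1 and 2 counts in the arf6arf8 libraries and 0, 2, 0 and 2 in the mARF8 libraries, against 0 in all 3 wild-type libraries. CAD2, which overlaps it on the other strand, had 72 and 80 counts in arf6arf8 stamens, with 46 to 72 counts for mARF8 stamens, against 10 to 35 in wild-type stamens, and 0 to 4 in gynoecia; its part in the EC1.2 counts was not tested. The AT2G21895 pseudogene had 0 to 1 count per gynoecium library and 0 to 9 per stamen library.

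EC1.1 had 1 count in arf6arf8 gynoecia (replicate 2) and 1 in arf6 Pstk_axr3 gynoecia (replicate 3), and 0 in the other 16 gynoecium libraries, wild type included. EC1.3 had 1 count each in Pstk_axr3 replicate 2, arf6 Pstk_axr3 replicate 3 and wild-type replicate 2. EC1.5 had 1 count in Pstk_axr3 replicate 2 and 2 and 1 in arf6 Pstk_axr3 replicates 1 and 2, against 2 in wild-type replicate 4. Over the 9 stamen libraries EC1.1 had 1 count in total, EC1.3 had 0 and EC1.5 had 3. No library of either tissue reached the floor of 3 counts for any of them. AT5G64710, which faces EC1.5 from 35 bases away, had 11.4 to 17.2 CPM in gynoecia and 0.680 to 5.85 CPM in stamens.

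The synergid gene MYB98 had 1 and 2 counts in Pstk_axr3 replicates 2 and 3 and 1 count in arf6 Pstk_axr3 replicate 3, against 0 in all 4 wild-type gynoecium libraries. It had 2 counts over the 9 stamen libraries. All 4 gynoecium reads came from libraries with the SEEDSTICK-driven transgene. No library reached the floor of 3 counts, so no difference was detectable at this depth. The Pstk_axr3 and arf6 Pstk_axr3 groups held 31226837 and 38884304 of the 157809069 gynoecium counts. IRX1, which overlaps MYB98 on the other strand, had 4.21 to 8.91 CPM in Pstk_axr3 and 3.15 to 5.07 CPM in arf6 Pstk_axr3 gynoecia. Its highest level was 3.26 CPM in wild-type, 4.94 CPM in arf6arf8 and 5.19 CPM in mARF8 gynoecia, groups without a MYB98 count. In stamens IRX1 had 126 to 479 CPM. Its part in the MYB98 counts was not tested. The central cell gene AGL61 had 0 counts in all 27 libraries, although its partner AGL80 was counted in each. TAT3, which faces AGL61 from 58 bases away, had 32 to 142 counts in Pstk_axr3 gynoecia and 1 to 7 in arf6 Pstk_axr3 gynoecia, against 0 to 1 in wild-type gynoecia.

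**Figure D1:**
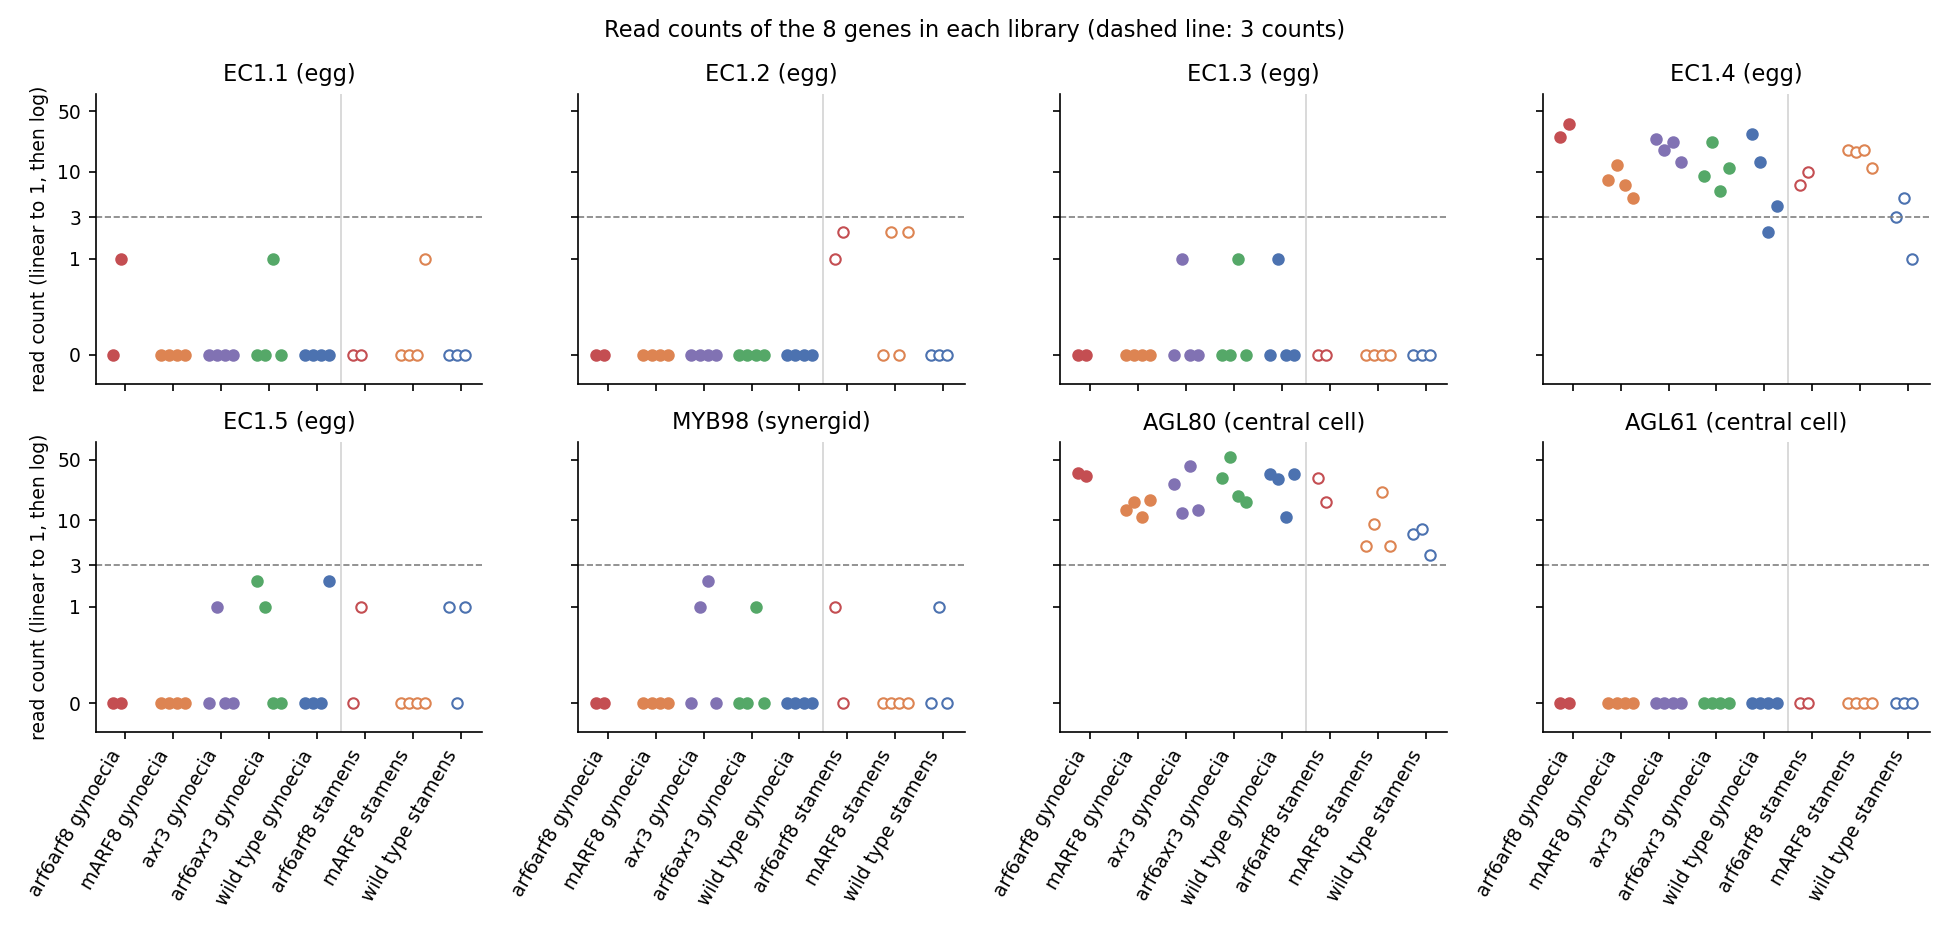
Read counts (vertical axis, linear up to 1 and logarithmic above) of the 8 genes in each of 27 libraries; each point is a library, filled for gynoecia and open for stamens, and the dashed line marks 3 counts. EC1.4 and AGL80 had counts in every library, and the other 6 genes had 0 to 2.

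The near absence of embryo sac transcripts was shared by most other listed genes of the female gametophyte and not by most listed genes of the ovule's sporophytic tissue. Of 22 other female gametophyte genes, 18 had at most 2 counts in every gynoecium library, against 34.3% of all loci. The 9 with 0 in all, against 23.0% of all loci, included the pollen tube attractant genes LURE1.3 and LURE1.4. MLO7, the synergid receptor partner NORTIA, AGL62, a MADS-box gene of the central cell and endosperm, and DME, a DNA glycosylase gene, had counts in every gynoecium library. They also had counts in every stamen library. Of 14 genes of the ovule sporophyte, 1 stayed at 2 counts or fewer and 10 had counts in every gynoecium library, as did 18306 of all 33602 loci. Per kilobase of exon, the median level in wild-type gynoecia was 2.01 CPM for EC1.4, 2.47 for AGL80, 1.02 for MLO7, 1.2 for AGL62 and 13.3 for DME. On the same scale it was 55.9 for STK, the ovule identity gene SEEDSTICK, 65.0 for INO, an outer integument gene, and 116 for ANT, a gene of ovule primordium growth, which are among the highest of the ovule sporophyte list. The list also held genes as low as the members: over the 18 gynoecium libraries the median level, in CPM not scaled by length, was 0 for BAN, 0.678 for TT1, 0.709 for TT2 and 2.61 for SPL, beside 1.39 for EC1.4 and 2.56 for AGL80.

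**Figure D2:**
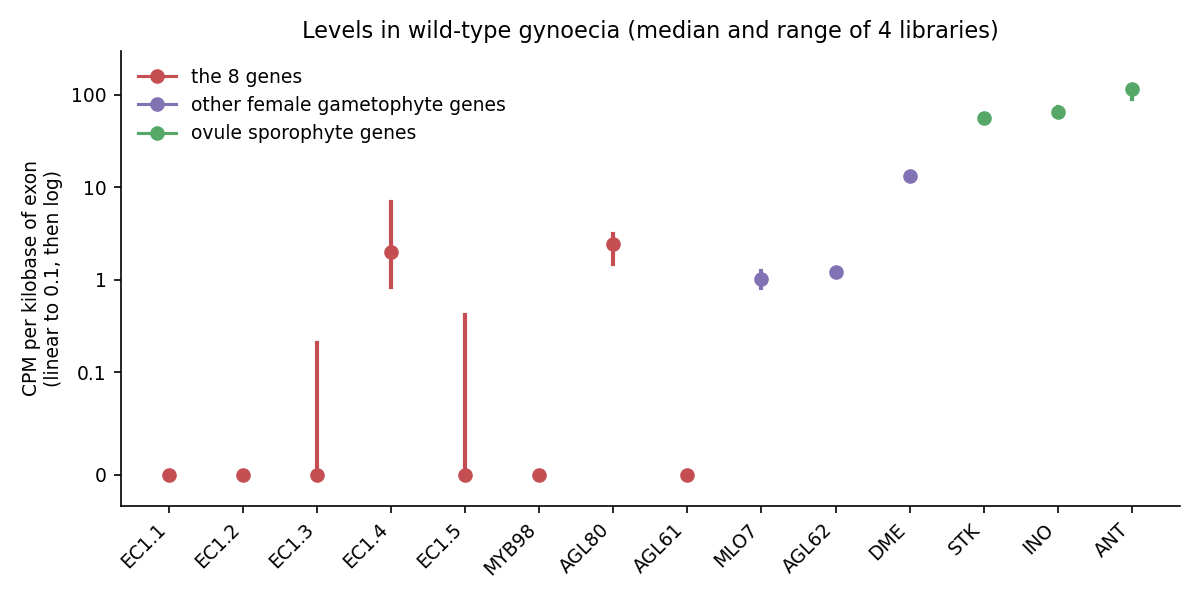
Level in CPM per kilobase of exon (vertical axis, linear up to 0.1 and logarithmic above) in the 4 wild-type gynoecium libraries; points are medians and bars run from the lowest to the highest library. Of the 8 genes, EC1.4 and AGL80 have medians above 0, at 2.01 and 2.47, well under STK at 55.9.

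The gynoecium and stamen libraries differed widely in tissue markers, whereas EC1.4 and AGL80 were present in both. In wild type, 81% of the 20665 loci tested in a fit of all libraries were called different between gynoecia and stamens by edgeR's quasi-likelihood test (adjusted p under 0.05), and neither EC1.4 nor AGL80 was among them or had an unadjusted p under 0.05 (edgeR only; DESeq2 was not run here). EC1.4 had 2.67, 1.1, 0.324 and 0.445 CPM in wild-type gynoecia, against 0.752, 0.907 and 0.227 CPM in wild-type stamens. The log2 fold change was 0.22 (SE 0.66, 95% interval -1.15 to 1.58, adjusted p = 0.772 by edgeR). AGL80 had 3.36, 2.54, 1.78 and 3.79 CPM in wild-type gynoecia, against 1.75, 1.45 and 0.907 CPM in wild-type stamens. Every wild-type gynoecium library was above every wild-type stamen library, the closest at 1.78 and 1.75 CPM. How many of all loci separate these tissues in this way was not counted. The log2 fold change was 0.40 (SE 0.42, 95% interval -0.47 to 1.27, adjusted p = 0.386 by edgeR) and depended on the scaling: relative to library totals, as in CPM, it was 1.08 (SE 0.41, adjusted p = 0.0186) and AGL80 was called, with 84.1% of loci called, but the median of all loci then stood at 0.66 and no longer near 0. On that scale EC1.4 was at 0.88 (adjusted p = 0.205). Of 11 ovule sporophyte genes tested, 10 were higher in wild-type gynoecia than in wild-type stamens, against 39.6% of all loci, and 1 was lower. INO had 71.1 to 89.5 CPM in wild-type gynoecia and 0 to 0.453 CPM in wild-type stamens. The lower gene was SPL, the sporogenesis regulator SPOROCYTELESS, which also acts in anthers (log2 fold change -4.42, SE 0.26, adjusted p = 3.4e-13 by edgeR); it had at most 3.55 CPM in any gynoecium library and 36.3 to 58.1 CPM in the stamen libraries. The order was the other way for the sum of 12 pollen and sperm genes, at 22.4 to 39.0 CPM in wild-type gynoecia and 9916 to 12478 CPM in wild-type stamens. Of 11 tested, 11 were lower in wild-type gynoecia, where 81% of all loci were called in either direction and 39.6% higher. GEX2, not among those tested, had at most 1 count in any library of either tissue. The 5 tapetum genes summed to 0.495 to 1.69 CPM in wild-type gynoecia and 40.1 to 55.1 CPM in wild-type stamens. Of 3 tested, 2 were lower in wild-type gynoecia, AMS and MS2, where 81% of all loci were called in either direction and 39.6% higher. AT5G07230 was not called (log2 fold change 4.35, SE 4.79). TDF1, not among those tested, had at most 4 counts in any gynoecium library and 0 in all stamen libraries. Among 6 other female gametophyte genes tested, 1 was higher in wild-type gynoecia and 4 were lower. Of all loci, 81% were called in either direction and 39.6% higher, so these counts are not read as a result about the list. The higher one was AGL62 (log2 fold change 1.37, SE 0.47, adjusted p = 0.0098 by edgeR). DME was lower (-0.26, SE 0.098, adjusted p = 0.0196 by edgeR), and MLO7 was not called. The rest of the lower genes were counted mainly in stamens. GEX3, a membrane protein gene also known from pollen, had 0 counts in wild-type gynoecia and 35 to 48 in wild-type stamens. FWA had at most 2 counts in any gynoecium library and 6 to 37 in the stamen libraries, and AT3G10890 had at most 18 counts in gynoecium libraries and 186 to 1538 in stamen libraries.

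EC1.4 was the one egg cell gene with counts in every library, and its level varied widely within wild type. In arf6arf8 gynoecia it had 25 and 36 counts (1.71 and 2.40 CPM). In mARF8 gynoecia it had 8, 12, 7 and 5 counts (1.14, 3.25, 1.35 and 0.980 CPM), where the highest value belongs to the shallowest library. In Pstk_axr3 gynoecia it had 24, 18, 22 and 13 counts (2.70, 2.97, 1.99 and 2.49 CPM). All of these lay above the highest arf6 Pstk_axr3 library, where the counts were 9, 22, 6 and 11 (1.23, 1.43, 0.815 and 1.24 CPM). How many of all loci separate these groups was not counted. In wild-type gynoecia it had 27, 13, 2 and 4 counts, and the libraries fell apart: replicate 1 had 2.67 CPM (exact Poisson 95% interval 1.76 to 3.89, counting error only), whereas replicate 3 had 0.324 CPM (0.0392 to 1.17). Ordered by mean, the gynoecium groups ran from Pstk_axr3 at 2.54 ± 0.416 CPM (SD, n = 4), arf6arf8 at 2.06 ± 0.484 (n = 2), mARF8 at 1.68 ± 1.06 (n = 4) and arf6 Pstk_axr3 at 1.18 ± 0.260 (n = 4) to wild type at 1.13 ± 1.08 (n = 4), and neighbours in this order overlapped.

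**Figure D3:**
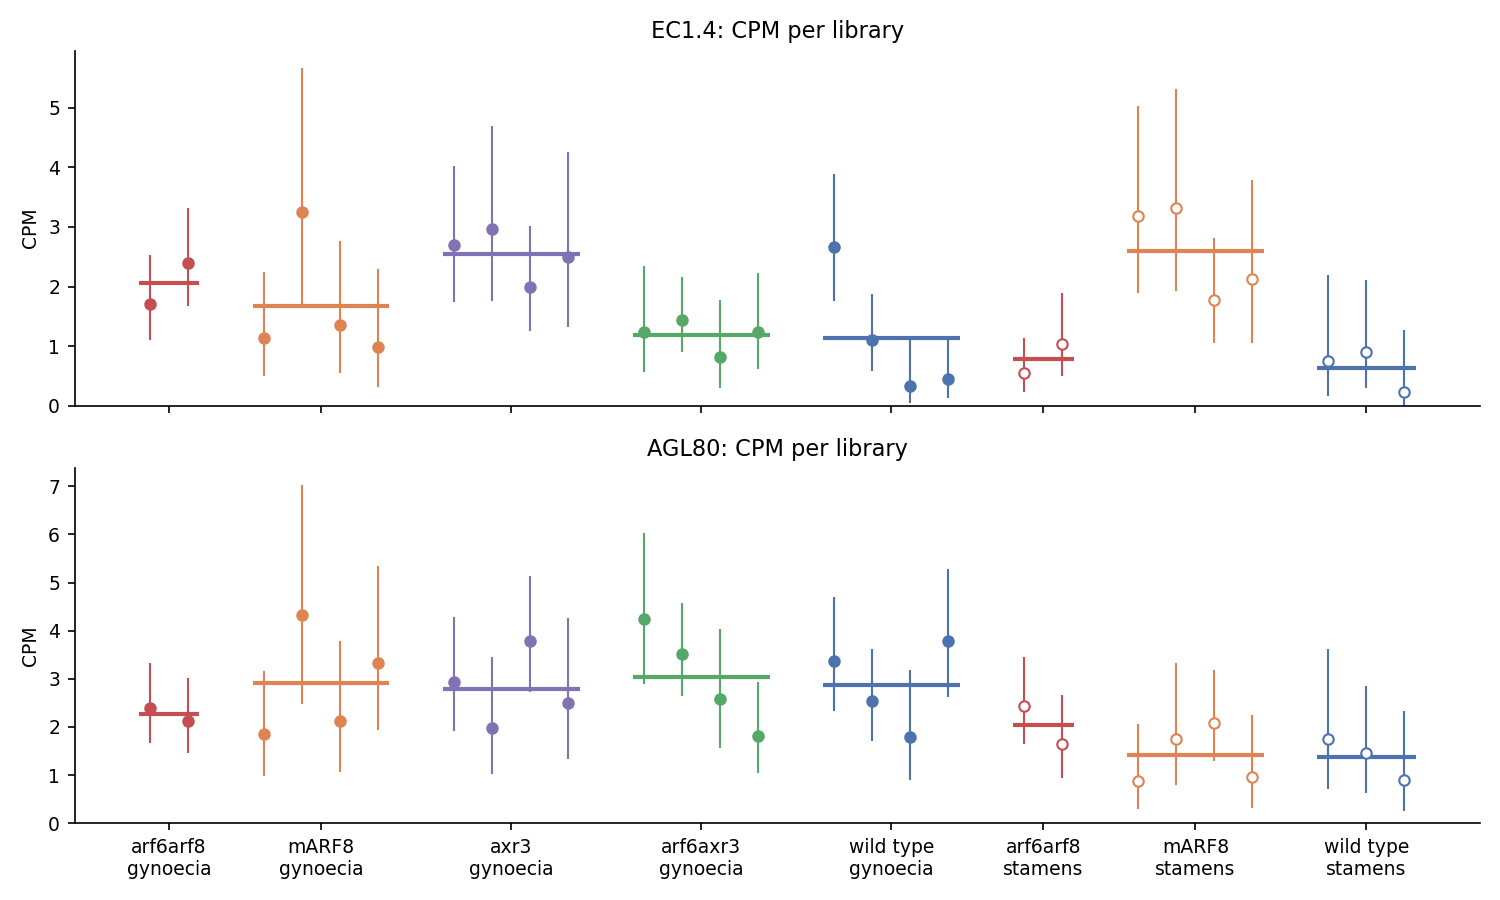
CPM (vertical axis) of EC1.4 (top) and AGL80 (bottom) in each library; points are libraries with exact Poisson 95% intervals that cover counting error only, and horizontal bars are group means. EC1.4 in wild-type gynoecia spans 0.324 to 2.67 CPM, and in mARF8 stamens 1.78 to 3.32 CPM, above the wild-type stamens at 0.227 to 0.907 CPM.

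The first comparison asked whether loss of both ARF6 and ARF8 alters these transcripts in gynoecia. Of 8 members, 2 passed the filter on low counts, EC1.4 and AGL80, and neither was called by edgeR in arf6arf8 against wild type, where 11.2% of the 18616 loci tested were called. No member had an unadjusted p under 0.05, and DESeq2 called none. The EC1.4 log2 fold change was 0.80 (SE 0.52, 95% interval -0.29 to 1.89, adjusted p = 0.363). Without wild-type replicate 1 it was 1.63, with an adjusted p of 0.0304; over all alternatives the adjusted p ran from 0.0304 to 0.887. Among libraries numbered up to 25 in the titles, which include both arf6arf8 libraries, it was 0.17. Among the 11 ovule sporophyte genes tested, 2 fell, against 4.97% of all loci that fell, and none rose: SHP1, a MADS-box gene of carpels and ovules (log2 fold change -0.73, SE 0.094, adjusted p = 6.6e-05), and TT12, a flavonoid transporter gene of the seed coat, which had 0 and 2 counts in the double mutant, against 55 to 69 counts in wild-type gynoecia (adjusted p = 4.8e-07). A fitted fold for TT12 would depend on the added prior count and is not given. None of the 3 other gametophyte genes tested was called by edgeR or DESeq2 or had an unadjusted p under 0.05.

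In mARF8 gynoecia, whose ARF8 transgene has a mutated miR167 target site, neither member was called and 0.688% of loci were. No member had an unadjusted p under 0.05, and DESeq2 called none. The EC1.4 log2 fold change was 0.39 (SE 0.52, 95% interval -0.70 to 1.48, adjusted p = 0.795), with -0.07 among libraries numbered up to 25 and 1.26 among those numbered above 25. No ovule sporophyte gene was called by edgeR or DESeq2, while INO and VDD had an unadjusted p under 0.05, and no other gametophyte gene was called by either tool or had an unadjusted p under 0.05.

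Expression of axr3-1 under the SEEDSTICK promoter gave the most calls of the gynoecium comparisons, 15.7% of loci in Pstk_axr3 against wild type, and neither member was called by edgeR or DESeq2. EC1.4 was the member with an unadjusted p under 0.05 (0.0287 from edgeR's test). Its log2 fold change was 1.09 (SE 0.46, 95% interval 0.13 to 2.06, adjusted p = 0.121). Wild-type replicates 2 to 4 lay below every Pstk_axr3 library, and wild-type replicate 1 lay among them; without that library the log2 fold change was 1.92 and the adjusted p 0.0051. Among libraries numbered up to 25 it was 0.64 (adjusted p = 0.559), among those numbered above 25 it was 2.49 (adjusted p = 0.0216), and with a term for that split it was 1.25 (adjusted p = 0.0370). The adjusted p ran from 0.0051 to 0.559 over all alternatives. Ovule sporophyte genes fell in the same gynoecia: 7 of 11 tested were lower, against 7.06% of all loci, and none was higher, with a median log2 fold change of -0.78 for the 11 against -0.0021 for all loci. SHP1 fell by 1.01 on the log2 scale (SE 0.077, adjusted p = 5.4e-08), and TT12 had 0 to 3 counts in Pstk_axr3 gynoecia, against 55 to 69 in wild-type gynoecia (adjusted p = 4.0e-08). BEL1, an integument identity gene, had 8.81 to 27.4 CPM in Pstk_axr3 gynoecia and 49.4 to 57.2 CPM in wild-type gynoecia. Of the other gametophyte genes, none was called by edgeR or DESeq2, and AGL62 had an unadjusted p under 0.05.

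Losing ARF6 in the transgenic plants was compared both with wild type and with the transgene alone; the 2 comparisons share the arf6 Pstk_axr3 libraries. Against wild type, neither member was called in arf6 Pstk_axr3 gynoecia, where 1.72% of loci were, and none had an unadjusted p under 0.05 or was called by DESeq2. The EC1.4 log2 fold change was 0.02 (SE 0.49, 95% interval -1.01 to 1.04, adjusted p = 1.00), and it was 1.60 among libraries numbered above 25, with an adjusted p of 0.224 in a range of 0.224 to 1.00 over all alternatives. Among ovule sporophyte genes, SHP1 fell (log2 fold change -0.76, SE 0.076, adjusted p = 2.6e-05) against 0.65% of all loci that fell, and the other 10 tested were not called.

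Against Pstk_axr3, neither member was called in arf6 Pstk_axr3, where 8.56% of loci were, and DESeq2 called none. EC1.4 had an unadjusted p under 0.05 (0.0308 from edgeR's test), with a log2 fold change of -1.08 (SE 0.46, 95% interval -2.04 to -0.11, adjusted p = 0.164). Its groups did not overlap, but the share of all loci that separate in this way was not counted. Fitted on the groups compared alone, the log2 fold change was -1.07 and the adjusted p 0.0327, the lowest in a range of 0.0327 to 0.540. Among libraries numbered above 25, which include all arf6 Pstk_axr3 libraries, it was -0.89 (adjusted p = 0.244). Ovule sporophyte genes moved the other way: 5 of 11 tested were higher, against 3.63% of all loci, and none was lower. TT12 had 33 to 65 counts in arf6 Pstk_axr3 gynoecia, against 0 to 3 in Pstk_axr3 gynoecia (adjusted p = 4.9e-07), and TT16, a MADS-box gene of the inner seed coat, rose with a log2 fold change of 2.05 (SE 0.33, adjusted p = 5.9e-04). Between the lines within arf6 Pstk_axr3, 0.0161% of loci were called in line 15-5 against line 25-2. Neither member was called by edgeR or DESeq2 or had an unadjusted p under 0.05, and the EC1.4 log2 fold change was -0.40 (SE 0.72, adjusted p = 1). STK itself was higher in line 15-5 (log2 fold change 2.24, SE 0.26, adjusted p = 0.0014 by edgeR). STK had 161 and 157 CPM in line 15-5 and 32.1 and 34.9 CPM in line 25-2. Wild-type gynoecia had 130 to 141 CPM, so line 25-2 was the one far from wild type. The labels say that the STK promoter sequence is in the transgene and not whether any transcribed part of STK is. Pollen and sperm genes gave 1 call over the 6 gynoecium comparisons, with 7 genes tested in each: STP11 rose in arf6 Pstk_axr3 against wild type (log2 fold change 2.89, SE 0.70, adjusted p = 0.0421). DESeq2 instead called 1 such gene higher in Pstk_axr3 against wild type, and the unadjusted p was under 0.05 for 4 of the 7 in arf6arf8. The 1 tapetum gene tested, AMS, was called in no gynoecium comparison by either tool, with an unadjusted p under 0.05 between the lines.

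AGL80 was the most evenly counted member. In gynoecia it had 35 and 32 counts in arf6arf8 (2.40 and 2.13 CPM), and 13, 16, 11 and 17 counts in mARF8 (1.85, 4.33, 2.11 and 3.33 CPM). It had 26, 12, 42 and 13 counts in Pstk_axr3 (2.93, 1.98, 3.80 and 2.49 CPM) and 31, 54, 19 and 16 counts in arf6 Pstk_axr3 (4.25, 3.51, 2.58 and 1.81 CPM), against 34, 30, 11 and 34 counts in wild type. The ranges of all 5 groups overlapped, with means from 2.27 ± 0.189 CPM in arf6arf8 (SD, n = 2) to 3.04 ± 1.07 CPM in arf6 Pstk_axr3 (n = 4), and 2.87 ± 0.890 CPM in wild type (n = 4). Log2 fold changes against wild type were -0.32 in arf6arf8 (95% interval -1.07 to 0.42), -0.05 in mARF8 (-0.72 to 0.62), 0.02 in Pstk_axr3 (-0.61 to 0.66) and 0.08 in arf6 Pstk_axr3 (-0.54 to 0.70). Those intervals leave room for changes of up to about 1 log2 unit downward in arf6arf8, and a smaller one in the other 3 groups.

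**Figure D4:**
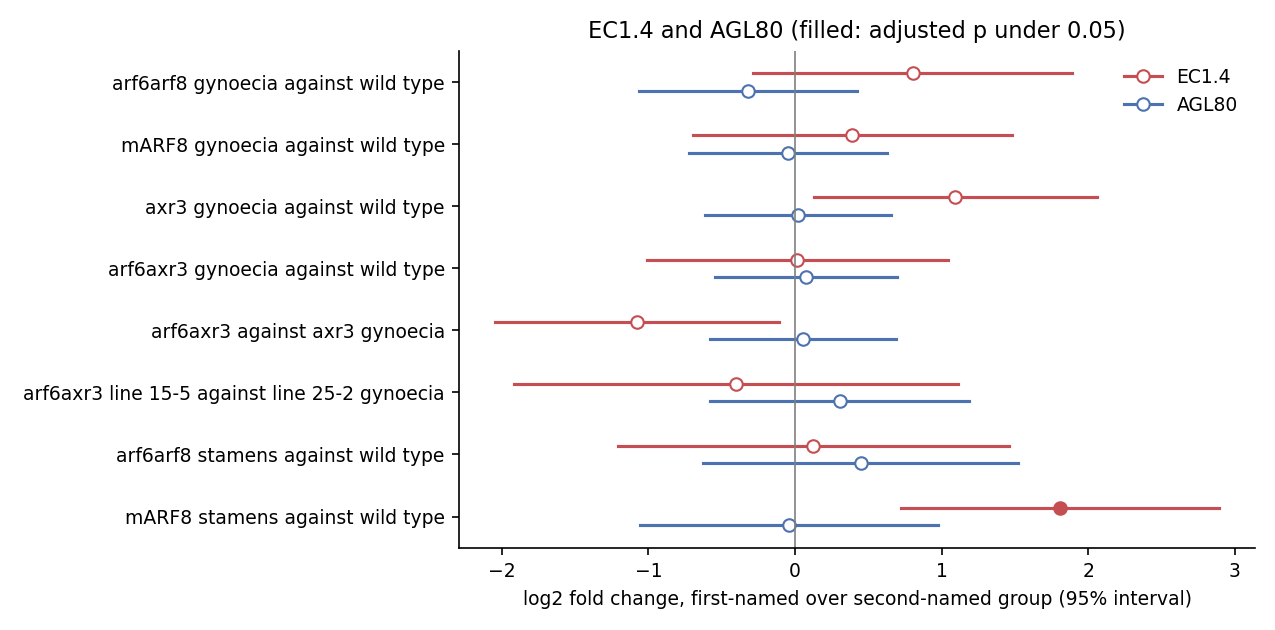
Log2 fold change (horizontal axis) of EC1.4 and AGL80 in each comparison, first-named over second-named group; bars are 95% intervals from edgeR, and a filled point marks an adjusted p under 0.05. The filled point is EC1.4 in mARF8 stamens, at 1.81, and all AGL80 intervals span 0.

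In stamens EC1.4 rose with the miR167-resistant ARF8 and AGL80 was not called. EC1.4 had 18, 17, 18 and 11 counts in mARF8 stamens (3.19, 3.32, 1.78 and 2.12 CPM), against 3, 5 and 1 counts in wild-type stamens (0.752, 0.907 and 0.227 CPM). The groups did not overlap, but the share of all loci that separate in this way was not counted. The titles name line 3B, line 4B and the T1s pool for these mARF8 libraries, whereas the genotype tag gives 4B for all 4, so the values are not read by line. The log2 fold change was 1.81 (SE 0.48, 95% interval 0.72 to 2.89, adjusted p = 0.0204 by edgeR), in a comparison where 20.4% of the 18828 loci tested were called higher and 37% called in either direction, so that 1 of 2 members called higher is not a result about the members as a set. The adjusted p was 0.0574 without wild-type replicate 1, 0.0773 without wild-type replicate 3 and 0.0956 among libraries numbered up to 25, in a range of 0.0115 to 0.0956. Group means were 2.60 ± 0.766 CPM in mARF8 stamens (SD, n = 4) and 0.629 ± 0.357 CPM in wild-type stamens (n = 3). Wild-type stamen libraries hold 1 to 5 counts, so the fold rests on very few reads. The mARF8 effect in stamens minus that in gynoecia was 1.35 on the log2 scale (SE 0.80, adjusted p = 0.225 by edgeR, with 25.8% of loci called), so a difference between the tissues was not shown. In arf6arf8 stamens EC1.4 had 7 and 10 counts (0.550 and 1.03 CPM) and a log2 fold change of 0.12 (SE 0.59, adjusted p = 0.946). Neither member was called by edgeR or DESeq2 in arf6arf8 against wild-type stamens, where 4.39% of loci were, or had an unadjusted p under 0.05. The arf6arf8 effect in stamens minus that in gynoecia was -0.67 for EC1.4 (SE 0.92, adjusted p = 0.715 by edgeR) and 0.78 for AGL80 (SE 0.60, adjusted p = 0.469), with 6.65% of loci called.

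AGL80 had 31 and 16 counts in arf6arf8 stamens (2.44 and 1.65 CPM) and 5, 9, 21 and 5 counts in mARF8 stamens (0.885, 1.76, 2.08 and 0.963 CPM), against 7, 8 and 4 counts in wild-type stamens. Its log2 fold changes were 0.45 in arf6arf8 (SE 0.48, adjusted p = 0.636) and -0.04 in mARF8 (SE 0.45, adjusted p = 0.952). Other gene groups moved in mARF8 stamens: 9 of 11 pollen and sperm genes tested were lower, against 16.6% of all loci, and none was higher, among them STP11, a pollen sugar transporter gene (log2 fold change -5.49, SE 0.60, adjusted p = 0.0010), and AGL65 (-2.35, SE 0.31, adjusted p = 0.0020). Of 2 tapetum genes tested, AMS, a tapetum transcription factor gene, rose (1.46, SE 0.16, adjusted p = 0.0011). SHP2 fell (-1.25, SE 0.36, adjusted p = 0.0260) and BEL1 rose (0.73, SE 0.17, adjusted p = 0.0124) among 7 ovule sporophyte genes tested, and GEX3 fell (-1.72, SE 0.46, adjusted p = 0.0204) among 4 other gametophyte genes tested. The part of these shifts in the EC1.4 value was not tested. In arf6arf8 stamens 1 gene of each list but the other gametophyte genes was called: STP11 fell (-5.70, SE 0.75, adjusted p = 0.0046), SHP2 fell (-2.0, SE 0.44, adjusted p = 0.0368) and AMS rose (0.83, SE 0.19, adjusted p = 0.0398). None of the other gametophyte genes was called by edgeR or DESeq2, and DME had an unadjusted p under 0.05.

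CAD9, the gene whose end faces EC1.4, is among the highly counted genes, and it moved in the same libraries. In mARF8 stamens it had 929, 1096, 618 and 746 CPM, against 381, 473 and 399.8 CPM in wild-type stamens, and it rose with a log2 fold change of 0.85 (SE 0.18, adjusted p = 0.0103 by edgeR). In arf6arf8 stamens it had 241 and 275 CPM, with a log2 fold change of -0.84 (SE 0.22, adjusted p = 0.0693 by edgeR). In gynoecia CAD9 ran from 1133 to 1566 CPM. The library with the most EC1.4 was also the one with the most CAD9 in mARF8 (replicate 2) and in wild type (replicate 1), but not in the other 3 gynoecium groups. In arf6arf8, replicate 2 had the more EC1.4 and the less CAD9 (1137 CPM, and 1168 CPM in replicate 1). In Pstk_axr3, replicate 2 had the most EC1.4 and the least CAD9 (1387 CPM), and in arf6 Pstk_axr3, replicate 3 had the least EC1.4 and the most CAD9 (1261 CPM). Pearson r between EC1.4 and CAD9, on log2 of CPM plus 1, was 0.71 over 18 gynoecium libraries and 0.87 over 9 stamen libraries. Each r pools the groups of a tissue, so differences between groups enter it. Per 1000 CAD9 reads, EC1.4 had 2.84 to 3.43 reads in mARF8 stamens, against 0.567 to 1.97 in wild-type stamens. These groups did not overlap on this ratio, but each wild-type stamen library held 1 to 5 EC1.4 reads. How often ratios of other loci separate these groups was not counted, and 37% of loci were called between them. In arf6arf8 stamens the ratio was 2.29 and 3.74. The ratio was 1.39 to 2.14 in Pstk_axr3 gynoecia and 0.646 to 1.18 in arf6 Pstk_axr3 gynoecia, against 0.286 to 1.70 in wild-type gynoecia. The part of reads running past the end of CAD9 in the EC1.4 counts was not tested. AT5G48660, which faces AGL80, had 18.8 to 27.4 CPM in gynoecia and 2.51 to 8.39 CPM in stamens. Pearson r between AGL80 and AT5G48660 was -0.04 in gynoecia and -0.22 in stamens.

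**Figure D5:**
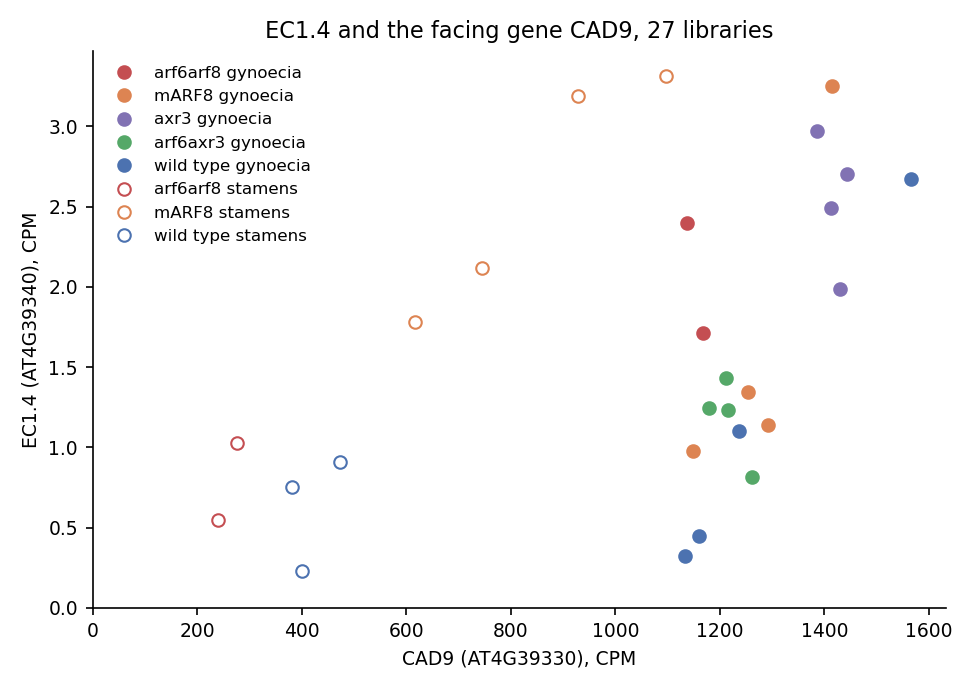
EC1.4 (vertical axis) against the facing gene CAD9 (horizontal axis), both in CPM, in 27 libraries, filled for gynoecia and open for stamens. The mARF8 stamens, at 618 to 1096 CPM of CAD9, lie above and to the right of the other stamen libraries.

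The genes whose profiles over the 18 gynoecium libraries were most like that of the summed EC1 counts (275 reads, 264 of them from EC1.4) were GSTT1, a glutathione transferase gene (Pearson r = 0.92 on log2 CPM), GLB1, the PII signalling protein gene (0.89), PMSR4, a methionine sulfoxide reductase gene (0.89), TXR1 (0.87), Cpn60beta2, a chaperonin gene (0.87), AT3G24100 (0.86), AT1G67785 (0.86), TCH3, a calmodulin-like gene (0.86), AT5G12110 (0.85) and MYB7 (0.85). CAD9 ranked 232 of 18614 loci (r = 0.75). For AGL80 and AGL61 together (446 reads, all from AGL80) they were AT1G52630 (0.83), AT1G50140 (0.72), BRIZ1 (0.68), AT3G05430 (0.68) and AT1G80400 (0.68). These are descriptions over 18 libraries that share groups and depth, taken as the highest of 18614 loci against few reads, and carry no p. No embryo sac gene of the lists was among them. The members were left out of the ranking, and 3 of the 22 other female gametophyte genes passed the count filter. That absence was therefore largely set in advance. MYB98 had 4 reads in 3 libraries, too few for a profile; by the same measure the highest were AT1G16040 (0.74), AT5G28150 (0.73), AT3G08640 (0.71), ACBP5 (0.71) and AT1G55200 (0.68).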

How the data were processed

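Each library came as a table of deposited read counts per locus, whole numbers with no normalization. Reads were single-end and 50 bases long; the submitters' processing notes name TopHat2, HTSeq and edgeR and the TAIR10 build; versions, strand setting and treatment of multiply mapped reads are not given in the sources used here. Blank rows (15) were dropped; they name no locus. CPM is a count divided by its library total. Loci were matched by name to TAIR10.1 (32835 of 33602), whose coordinates and sequences are used; no coordinates came from the files.

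Gynoecia were compared with edgeR 4.0.16 (R 4.3.3): filterByExpr (minimum count 10, total 15), TMM, a quasi-likelihood fit of all 18 libraries by group (18616 loci), Benjamini-Hochberg adjustment over all loci, called under 0.05. The lines of arf6 Pstk_axr3 were compared in a fit with 6 groups. Tests on stamens (18828 loci) and across tissues (20665 loci) were added after seeing the data. Alternatives were DESeq2 1.42.0, its size factors, library totals (added after seeing the data), no filter, only the groups compared, a replicate block, a term for or a split by library number, single lines, and leaving out each library. Scripts were tested on simulated data.

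The 8 genes and the lists of other female gametophyte, ovule sporophyte, pollen and sperm, and tapetum genes were chosen with earlier results of these data known; 3 listed loci that the reference gives another symbol were left out. Besides the 8 genes, the text names the 2 called loci of each list with the smallest adjusted p per comparison and, by Pearson r, the loci most like the summed EC1 counts (10), MYB98 (5) and AGL80 with AGL61 (5); loci needed as neighbours, for levels or for small counts were chosen after their values were seen.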

Additional observations from a re-analysis of the deposited data

Results flagged for a closer look

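Of 21 groups of 4 libraries with any count of a member, 9 held a library far from the others by Dixon's test. In 8 of them the library that stood apart had 1 or 2 counts and the other 3 had 0, so that any lone read is singled out and the test's chance rate of about 1 in 20 groups does not apply. EC1.1 had 0.136 CPM in arf6 Pstk_axr3 gynoecia replicate 3 and 0.193 CPM in mARF8 stamens replicate 4 (1 count each). EC1.3 had 0.165 CPM in Pstk_axr3 gynoecia replicate 2, 0.136 CPM in arf6 Pstk_axr3 gynoecia replicate 3 and 0.0846 CPM in wild-type gynoecia replicate 2 (1 count each). EC1.5 had 0.165 CPM in Pstk_axr3 gynoecia replicate 2 (1 count) and 0.223 CPM in wild-type gynoecia replicate 4 (2 counts). MYB98 had 0.136 CPM in arf6 Pstk_axr3 gynoecia replicate 3 (1 count), the library that also held the lone EC1.1 and EC1.3 reads of its group. The ninth was EC1.4 in mARF8 gynoecia replicate 2, with 12 counts and 3.25 CPM, against 0.980 to 1.35 CPM in the other 3; this library had 3692975 counts, the fewest of the gynoecium libraries, and also the highest CAD9 level of its group.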

How the results depend on the processing

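The number of members called stayed the same under most alternatives. With wild-type gynoecium replicate 1 left out, 1 member (EC1.4) was called higher in arf6arf8 and in Pstk_axr3; leaving out any other library gave 0 in both. EC1.4 was also the 1 member called higher in Pstk_axr3 with a term for library numbers above 25 and among those libraries alone, and the 1 called lower in arf6 Pstk_axr3 against Pstk_axr3 when only those groups were fitted. In mARF8 stamens 0 members were called higher among libraries numbered up to 25, and 0 to 1 over the left-out libraries (0 without wild-type replicate 1 or 3). The causes were not tested. Scaling by library totals, chosen after seeing the data, moved the median of all loci by over 0.1 in stamens (0.16 in arf6arf8, 0.25 in mARF8) and between tissues (0.66); EC1.4 in mARF8 stamens was then 1.97 (adjusted p = 0.0153).

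Several log2 fold changes near 0 changed sign. For EC1.4 they were -0.074 in mARF8 gynoecia (libraries up to 25), -0.23 in arf6 Pstk_axr3 against wild type (line 15-5), and in arf6arf8 stamens -0.084 with a replicate block, -0.044 with the library term and -0.24 among libraries up to 25. For AGL80 they were 0.19 in mARF8 gynoecia (above 25), -0.20 (up to 25) and -0.015 (library totals) in Pstk_axr3, -0.026 (library term) and -0.069 (line 25-2) in arf6 Pstk_axr3 against wild type, -0.034 (library term), -0.11 (above 25) and -0.090 (line 25-2) against Pstk_axr3, and, in mARF8 stamens, 0.083 with a replicate block and 0.103 with library totals. Leaving out single libraries gave EC1.4 values of -0.063 to 1.22 in mARF8 gynoecia, -0.25 to 0.84 in arf6 Pstk_axr3 against wild type and -0.33 to 0.51 in arf6arf8 stamens, and AGL80 values of -0.28 to 0.14 in mARF8 gynoecia, -0.16 to 0.17 in Pstk_axr3, -0.087 to 0.25 and -0.11 to 0.24 in arf6 Pstk_axr3 against wild type and against Pstk_axr3, -0.073 to 0.88 between its lines, and -0.29 to 0.16 in mARF8 stamens. None of these was called.

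Replicate numbers were not treated as pairs in the design as reported. Same-numbered libraries correlated, in their deviations from group means, at 0.17, 0.15, 0.07 and 0.33 in Pstk_axr3 against wild-type gynoecia. In mARF8 against wild-type stamens the values were 0.00063, 0.30 and 0.17, and no comparison of 3 or more pairs had all above 0.1. These values do not settle whether the numbers pair the libraries in part. With the replicate block the EC1.4 log2 fold change was 1.22 in Pstk_axr3 gynoecia (adjusted p = 0.0597) and 1.99 in mARF8 stamens (adjusted p = 0.0192), and no member's call changed. Over all loci the counts called ran from 753 to 2405 for arf6arf8 gynoecia, 1 to 335 for mARF8, 1105 to 3316 for Pstk_axr3 and 92 to 507 for arf6 Pstk_axr3, 721 to 1894 against Pstk_axr3, 2 to 23 between lines, and 99 to 3530 in arf6arf8 and 1325 to 8789 in mARF8 stamens; the design as reported gave 2077, 128, 2929, 320, 1593, 3, 826 and 6961. Fits that leave 1 library in a group assume that it varies like the others. Values among libraries up to 25 could not be had for arf6 Pstk_axr3, nor above 25 for arf6arf8, nor above 25 in stamens. Depth is a further limit: 3 counts in a library equal 0.195 to 0.812 CPM in gynoecia.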
